A study of Mus musculus with 8 samples.

Results

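Cohesin and condensin are the ring-shaped protein complexes that hold sister chromatids together and that compact chromosomes for mitosis. Transcripts of 10 of their subunit genes were examined in muscle stem cells (MuSCs) of aged mice. The cohesin genes were Smc1a, Smc3, Rad21, Stag1 and Stag2, and the condensin genes were Smc2, Smc4, Ncaph, Ncapd2 and Ncapg. They were taken by name, and all 10 were found among the 55487 gene identifiers of the count table and among the 12060 genes that passed the filter on low counts. MuSCs had been sorted by FACS from hindlimb muscles of aged wild-type male C57BL/6JRj mice, as cells positive for CD34 and α7 integrin and negative for endothelial, leukocyte and Sca1 markers, and were cultured in growth medium for 72 hours. One arm received 1% DMSO as vehicle and the other the combination of nicotinamide and pyridoxine (NAM/PN), for which a final concentration of 1 mM is given without separate values for the 2 compounds. The sample labels do not say whether the NAM/PN cultures also held DMSO. No gene had been deleted or overexpressed in either arm. Each of 4 pools of 2 mice was cultured both ways, as the pool identifiers that the conditions share give it, and there were 4 libraries per condition.

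Both complexes are built around a pair of SMC proteins, long coiled-coil ATPases whose heads are bridged by a kleisin protein. In cohesin, SMC1A and SMC3 are closed by the kleisin RAD21, and either STAG1 or STAG2 binds to the kleisin. Condensin I uses SMC2 and SMC4, the kleisin NCAPH, and the HEAT-repeat subunits NCAPD2 and NCAPG. Cohesin also forms chromatin loops in interphase and is used in cells that do not divide, whereas condensin I acts on chromosomes once the nuclear envelope has opened. Adult MuSCs are quiescent in resting muscle and divide when they are activated by injury or placed in culture.

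The libraries held 6472484 to 10163101 counted reads each, and the members had between 150 and 6552 counts in a library. Of the muscle stem cell markers, 8 of 8 were tested, and their summed level was 2909 to 3369 CPM under vehicle, and 2335 to 2929 CPM under NAM/PN (CPM, counts scaled to the normalized size of the library). Of 6 endothelial markers Emcn and Cldn5 were at 0 in all libraries (summed 3.46 to 19.4 and 9.85 to 29.5 CPM), of 6 immune markers all but Cd68 were at 0 (0.979 to 7.58 and 3.50 to 7.14 CPM), of 6 mural markers Myh11 was at 0 (40.5 to 88.8 and 33.4 to 50.9 CPM), and of 6 fibro-adipogenic markers Pdgfra and Lum were at 0 (153 to 207 and 57.0 to 1123 CPM). Of the latter, Col3a1 was called lower with NAM/PN (149 to 166 against 53.7 to 84.4 CPM), and Col1a1 was at 486 and 1032 CPM in NAM/PN replicates 1 and 2 against 1.74 to 41.3 CPM in the other libraries, in the pools in which the SMC genes were higher with NAM/PN, and its part in the results was not tested. A set of 12 markers of myogenic differentiation summed to 1457 to 2808 CPM under vehicle, and 192 to 601 CPM under NAM/PN. Of these, 8 were called lower with NAM/PN, beside 120 of all 12060 tested genes. Vehicle replicate 3 and NAM/PN replicate 4 stood apart from the other libraries of their condition. Their counts differed from those of the other libraries of the condition by a chi-square per degree of freedom of 68.0 to 87.4 and 70.7 to 82.4, against 23.7 to 29.5 between the others, and a ribosomal RNA gene took 18.7% and 5.22% of their counts, against 9.09% to 11.6% in the remaining 6 libraries. Results for members are also given without these 2 libraries, a choice made after the data were seen.

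None of the 10 subunit genes differed between NAM/PN and vehicle beyond the spread between libraries. At an adjusted p under 0.05 in the quasi-likelihood test of edgeR, with the Benjamini-Hochberg procedure over all genes, 0 of 10 members were called, where 154 of 12060 genes (1.28%) were called in either direction. When the pool entered as a replicate block, the count was again 0 of 10, with 1.29% of all genes called. An unadjusted p under 0.05 was reached by 0 of 10 members and by 9.28% of all genes. Without vehicle replicate 3 and NAM/PN replicate 4 it was reached by 3 of 10 members (Smc1a, Smc3 and Smc4) and by 11.4% of all genes. For each SMC gene these were the highest vehicle library and the lowest NAM/PN library. Leaving both out had to raise their fold changes, so these 3 p-values are no support for a difference. Ncaph alone reached it when NAM/PN replicate 2, NAM/PN replicate 4 or pool 2 was left out (9.45%, 10.2% and 7.32% of all genes). As these are bulk cultures, fewer cells of a type and less RNA per cell cannot be told apart. The p-values measure the spread between the 4 pools of each condition. In all 10 members the ranges of the 2 conditions overlapped, while for 7.21% of all genes they did not. No member was higher with NAM/PN in all 4 pools, and none was lower in all 4 pools, compared with 8.49% and 11.1% of all genes. The members' log2 fold changes ran from -0.18 for Stag1 to 0.67 for Ncaph, and 7 of 10 were above 0, beside 49.8% of all tested genes. Their median was 0.10, beside a median of -0.0022 over all tested genes.

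**Figure D1:**
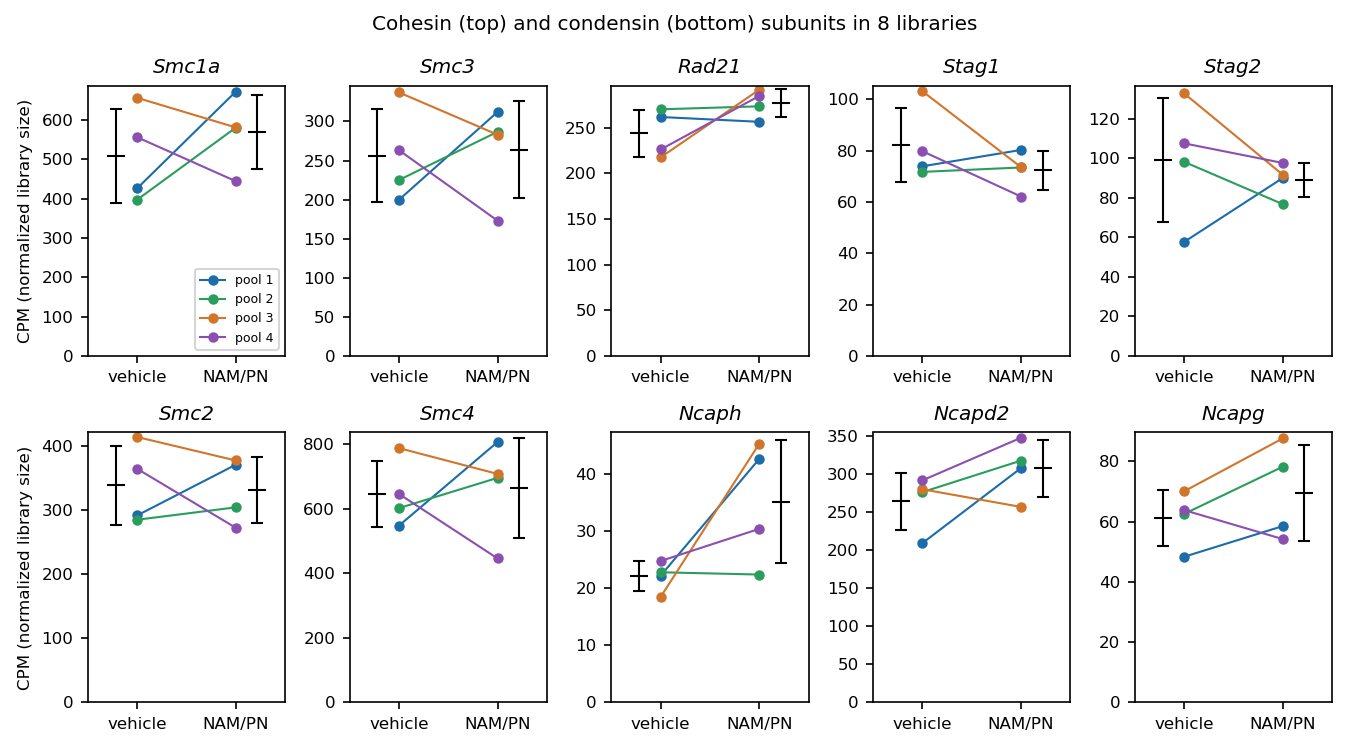
Level of each subunit gene (y axis, CPM of the normalized library size, from 0) in the 4 vehicle and 4 NAM/PN libraries (x axis), with libraries of the same pool of mice joined by a line and the mean and SD of each condition beside the points. The lines of Smc1a, Smc3, Smc2 and Smc4 rise in pools 1 and 2 and fall in pools 3 and 4, and in every panel the 2 conditions overlap.

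The upstream sequences of 3 genes of SMC subunits and of 2 other condensin genes are shown because the SMC genes rose and fell together from library to library, and so that their promoters can be set beside those of the HEAT-repeat subunits of condensin. They were read from RefSeq on GRCm38.p6, whose table matched 7 of the 10 members (Smc1a, Smc3, Stag1, Smc2, Ncaph, Ncapd2 and Ncapg; Rad21, Stag2 and Smc4 were not matched). Each run holds the 250 bases before the RefSeq start, 5′ to 3′ on the strand of the gene, with capitals for any match, on either strand, to CCAAT (the NF-Y box, also read as ATTGG), to TTTGAA (the cell cycle genes homology region, also read as TTCAAA), or to the E2F site variants TTTCCCGC and TTTGGCGC. RefSeq starts can differ from the gene starts of GENCODE given below. That of Ncapd2 lay 115 bases inside the GENCODE gene, that of Ncapg 6 bases and that of Stag1, not printed here, 45650 bases. The regions are chrX:152016178-152016427, plus strand for Smc1a, chr19:53600146-53600395, plus strand for Smc3, chr4:52438971-52439220, plus strand for Smc2, chr6:125191587-125191836, minus strand for Ncapd2 and chr5:45669675-45669924, plus strand for Ncapg.
Smc1a: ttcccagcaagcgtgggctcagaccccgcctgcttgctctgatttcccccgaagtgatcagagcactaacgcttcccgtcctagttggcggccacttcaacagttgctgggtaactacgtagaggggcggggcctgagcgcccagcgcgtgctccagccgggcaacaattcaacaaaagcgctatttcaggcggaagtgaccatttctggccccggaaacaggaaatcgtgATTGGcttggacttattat
Smc3: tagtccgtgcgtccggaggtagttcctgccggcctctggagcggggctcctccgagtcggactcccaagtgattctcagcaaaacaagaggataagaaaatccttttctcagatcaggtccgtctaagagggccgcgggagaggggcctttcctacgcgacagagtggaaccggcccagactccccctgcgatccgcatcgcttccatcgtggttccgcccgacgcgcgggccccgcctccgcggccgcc
Smc2: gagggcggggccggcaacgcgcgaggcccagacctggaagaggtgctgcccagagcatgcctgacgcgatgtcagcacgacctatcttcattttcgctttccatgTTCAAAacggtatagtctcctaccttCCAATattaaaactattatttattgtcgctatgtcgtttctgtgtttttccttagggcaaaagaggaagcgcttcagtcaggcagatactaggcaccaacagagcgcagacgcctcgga
Ncapd2: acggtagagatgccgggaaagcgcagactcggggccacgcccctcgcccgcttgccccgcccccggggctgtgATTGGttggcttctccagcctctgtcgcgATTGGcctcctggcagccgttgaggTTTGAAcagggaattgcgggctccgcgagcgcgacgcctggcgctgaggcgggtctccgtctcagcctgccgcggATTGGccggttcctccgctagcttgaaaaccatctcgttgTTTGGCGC
Ncapg: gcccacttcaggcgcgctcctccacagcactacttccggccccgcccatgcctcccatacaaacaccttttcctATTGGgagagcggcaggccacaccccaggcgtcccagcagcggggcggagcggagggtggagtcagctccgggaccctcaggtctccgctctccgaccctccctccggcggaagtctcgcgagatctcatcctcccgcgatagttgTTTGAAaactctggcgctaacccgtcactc

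The TTTGAA element lay in 3 of 4 matched condensin promoters, those of Smc2, Ncapd2 and Ncapg, and in 0 of 3 matched cohesin promoters, and 16.0% of 32851 promoters of the same length held it. Counted from the start, it began at -30 in Ncapg, at -123 in Ncapd2 and at -145 in Smc2. CCAAT was found in Smc1a, Stag1, Smc2, Ncapg and, with 3 matches, Ncapd2, and in 33.8% of all promoters. TTTGGCGC began at -8 in Ncapd2 (0.417% of all promoters) and TTTCCCGC at -17 in Stag1 (0.895%). Smc3 and Ncaph held none of the 4 motifs in this window. The SMC genes that varied together did not share 1 arrangement of these letters: Smc2 held CCAAT and TTTGAA, Smc1a CCAAT alone, and Smc3 neither. A match is a description of the sequence and not evidence of a bound factor.

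Among the cohesin ring genes, Smc1a (ENSMUSG00000041133, chromosome X of GRCm38 from 152016428 to 152062694), which encodes an SMC ATPase of the ring, had 426, 397, 656 and 556 CPM in vehicle replicates 1 to 4 and 672, 580, 581 and 444 CPM in NAM/PN replicates 1 to 4. The lowest value was in vehicle replicate 2 and the highest in NAM/PN replicate 1, and the conditions overlapped between 444 and 656 CPM. Its mean was 509 ± 120 CPM under vehicle, and 569 ± 94.0 CPM under NAM/PN (SD, n = 4 each), and its log2 fold change was 0.16 (SE, the standard error, 0.18, adjusted p = 0.911 by edgeR, and 0.874 with the block). Smc3 (ENSMUSG00000024974, chromosome 19 from 53600398 to 53645833) encodes the partner of SMC1A, whose acetylation locks cohesin on replicated DNA. It had 200, 225, 337 and 263 CPM under vehicle, and 312, 287, 283 and 173 CPM under NAM/PN, in the order of the pools. Vehicle replicate 3 was the highest and NAM/PN replicate 4 the lowest library, and the conditions overlapped between 200 and 312 CPM. The log2 fold change of Smc3 was 0.041 (SE 0.21, adjusted p = 0.988 by edgeR, as above).

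Rad21 (ENSMUSG00000022314, chromosome 15 from 51962240 to 51991747), the kleisin that separase cuts at anaphase, behaved differently from the SMC genes. Its level was 262, 270, 218 and 226 CPM in vehicle replicates 1 to 4, and 257, 274, 292 and 285 CPM under NAM/PN. Vehicle replicates 3 and 4, the highest vehicle libraries for the 4 SMC genes, were the lowest libraries for Rad21. NAM/PN was higher in 3 of 4 pools, with 244 ± 25.9 CPM against 277 ± 15.4 CPM (vehicle against NAM/PN, SD, n = 4 each), and the log2 fold change was 0.18 (SE 0.16, adjusted p = 0.859 by edgeR). It had the smallest p among the cohesin members.

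The STAG subunits, which are alternative partners of the kleisin and help to place cohesin on chromatin, were the only cohesin members with log2 fold changes below 0. For Stag1 (ENSMUSG00000037286, chromosome 9 from 100597798 to 100959375), vehicle libraries held 73.9, 71.7, 103 and 79.8 CPM and NAM/PN libraries 80.3, 73.4, 73.5 and 62.1 CPM. Vehicle replicate 3 was the highest library, and without that library and NAM/PN replicate 4 the log2 fold change went from -0.18 (SE 0.21, adjusted p = 0.909 by edgeR) to 0.0038 (SE 0.20). Stag2 (ENSMUSG00000025862, chromosome X from 42149317 to 42277185), the other partner, was at 57.7, 98.1, 133 and 108 CPM under vehicle, and at 90.0, 76.8, 91.7 and 97.6 CPM under NAM/PN. Its vehicle libraries spread on both sides of all NAM/PN libraries, with an SD of 31.2 CPM against 8.79 CPM. The log2 fold change of Stag2 was -0.15 (SE 0.23, adjusted p = 0.948 by edgeR), and it was lower with NAM/PN in 3 of 4 pools. Over the 5 cohesin members, 3 log2 fold changes were above 0 and 2 below, and the median was 0.041.

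In condensin, Smc2 (ENSMUSG00000028312, chromosome 4 from 52439243 to 52488260), an SMC ATPase that both condensin I and condensin II contain, had 291, 285, 413 and 364 CPM in vehicle replicates 1 to 4 and 370, 304, 377 and 272 CPM in NAM/PN replicates 1 to 4. Here too vehicle replicate 3 was the highest and NAM/PN replicate 4 the lowest library. The means were 338 ± 61.6 CPM under vehicle, and 331 ± 51.2 CPM under NAM/PN (SD, n = 4 per condition), with a log2 fold change of -0.033 (SE 0.18, adjusted p = 0.990 by edgeR). Smc4 (ENSMUSG00000034349, chromosome 3 from 69004738 to 69034623), the partner of SMC2, carries the microRNA genes Mir15b and Mir16-2 in its introns. With vehicle it had 548, 602, 788 and 646 CPM, and with NAM/PN 807, 696, 708 and 446 CPM. The NAM/PN libraries of Smc4 held both the highest and the lowest value of the 8 libraries, so that its spread with NAM/PN (SD 154 CPM) was larger than with vehicle (SD 103 CPM), while the log2 fold change was 0.040 (SE 0.18, adjusted p = 0.987 by edgeR).

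The largest log2 fold change of any member was that of Ncaph (ENSMUSG00000034906, chromosome 2 from 127103809 to 127133954), the kleisin of condensin I. Ncaph was at 22.3, 22.8, 18.5 and 24.8 CPM under vehicle, and at 42.7, 22.4, 45.4 and 30.4 CPM under NAM/PN. NAM/PN replicates 1, 3 and 4 were above every vehicle library, and NAM/PN replicate 2 lay among them. The mean was 22.1 ± 2.63 CPM under vehicle, and 35.2 ± 10.7 CPM under NAM/PN (SD, n = 4 per condition), with a log2 fold change of 0.67 with a 95% interval from -0.0017 to 1.35 and an adjusted p of 0.542 by edgeR (0.645 with the block). It was also the member with the fewest counts, from 150 to 347 per library. Without NAM/PN replicate 2, its lowest NAM/PN library, the log2 fold change was 0.84 (adjusted p = 0.355 by edgeR). Without pool 3, which holds its highest library, the log2 fold change was 0.45 (adjusted p = 0.815 by edgeR).

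Both HEAT-repeat genes of condensin I were higher with NAM/PN in 3 of 4 pools. Ncapd2 (ENSMUSG00000038252, chromosome 6 from 125168007 to 125191701) had 209, 276, 280 and 292 CPM under vehicle, and 308, 318, 257 and 348 CPM under NAM/PN. Only in pool 3 was the NAM/PN library below its vehicle partner, and the log2 fold change was 0.22 (SE 0.17, adjusted p = 0.817 by edgeR). Ncapg (ENSMUSG00000015880, chromosome 5 from 45669919 to 45700546) had 48.3, 62.5, 70.0 and 63.8 CPM under vehicle, and 58.5, 78.2, 87.6 and 54.2 CPM under NAM/PN. In pool 4 alone it was lower with NAM/PN, and its log2 fold change was 0.19 (SE 0.23, adjusted p = 0.926 by edgeR). The Ncapg gene overlaps Lcorl on the opposite strand by 944 exonic bases, and since the strand setting of the counting is not given in the sources used here, reads from this overlap cannot be assigned with certainty. Lcorl itself had between 75 and 192 counts per library. Ncapd2 shares 237 exonic bases with Scarna10 and 235 with Gm28967, both on its own strand. Stag2 shares 28 exonic bases with Gm37564 on the opposite strand. Over the 5 condensin members, 4 log2 fold changes were above 0, and the median was 0.19.

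**Figure D2:**
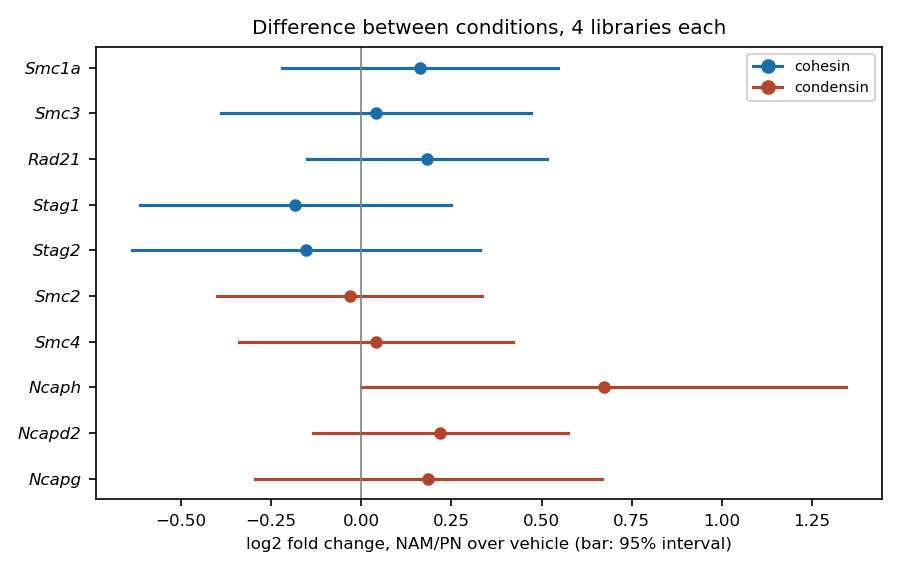
Log2 fold change of each subunit gene, NAM/PN over vehicle (x axis), with points for the estimate and bars for its 95% interval from edgeR's quasi-likelihood fit to 4 libraries per condition, in blue for cohesin and red for condensin. All 10 intervals include 0, and that of Ncaph reaches from -0.0017 to 1.35.

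For the 4 SMC genes the 95% intervals of the fold, NAM/PN over vehicle, lay between 0.758 (the lower bound for Smc2) and 1.46 (the upper bound for Smc1a). Including the other members apart from Ncaph they lay between 0.643 (Stag2) and 1.59 (Ncapg), and for Ncaph the interval was 0.999 to 2.54. Differences within these bounds could not be told from 0 here, and the lack of a call does not show that the levels were equal.

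The 4 SMC genes varied together between libraries. In each of them NAM/PN was higher in pools 1 and 2 and lower in pools 3 and 4, the pools that hold vehicle replicate 3 and NAM/PN replicate 4, the libraries that stood apart. The pool and these libraries cannot be told apart here. In pool 1 the log2 ratios within the pool were 0.66 for Smc1a, 0.64 for Smc3, 0.35 for Smc2 and 0.56 for Smc4, and in pool 4 they were -0.32, -0.60, -0.42 and -0.53 in the same order. Ordered by level, vehicle replicates 1 and 2 and NAM/PN replicate 4 were the 3 lowest libraries for all 4 genes, and vehicle replicate 3 and NAM/PN replicate 1 were among the 3 highest for all 4. Of all tested genes, 5.85% were higher with NAM/PN in pools 1 and 2 and lower in pools 3 and 4. These included Stag1 among the members, and 7 of the 39 tested pathway genes (17.9%), namely Pds5a and Smc6 and, named after their values were seen, Wapl, Ctcf, Wdhd1, Smc5 and Top2a, so the order was not particular to the SMC genes.

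**Figure D3:**
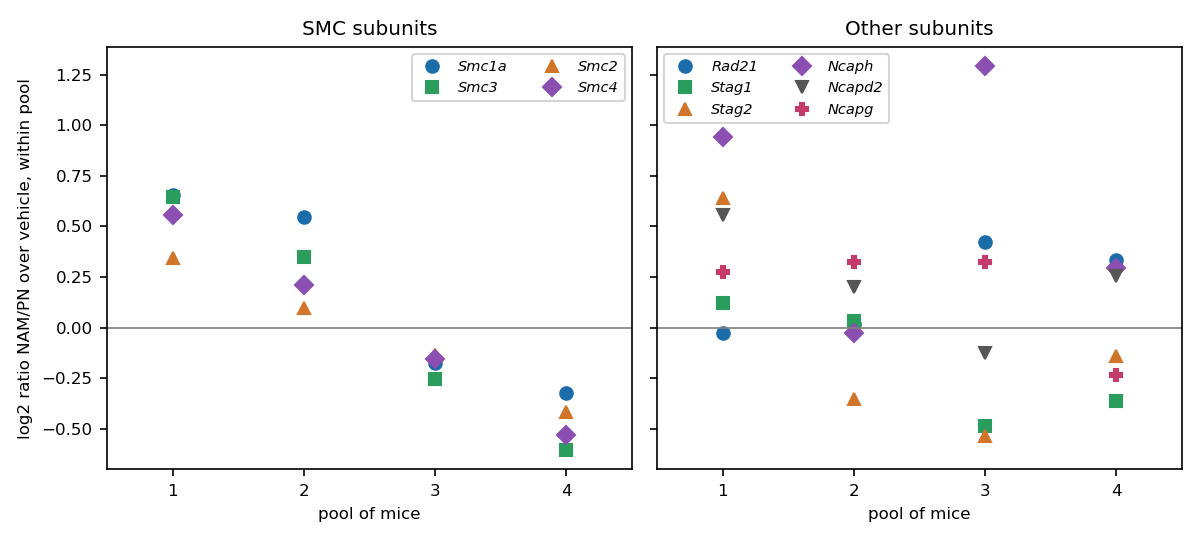
Log2 ratio of NAM/PN over vehicle (y axis) in each of the 4 pools of mice (x axis), for the 4 SMC genes on the left and the 6 other subunit genes on the right, with 1 symbol per gene. The SMC genes lie above 0 in pools 1 and 2 and below 0 in pools 3 and 4, as Stag1 does on the right, whereas the other 5 genes follow other orders.

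Across the 8 libraries, which share mice within pools and differ in depth, Pearson's r of log2 CPM between pairs of SMC genes was 0.83 to 0.98 (Spearman's rho 0.83 to 0.95, 6 pairs). The closest pair, Smc3 and Smc4, joined a cohesin and a condensin gene. Without vehicle replicate 3 and NAM/PN replicate 4, r was 0.71 to 0.97 over 6 libraries. Stag1 followed the SMC genes with r between 0.66 and 0.82. Rad21 ran the other way, with r of -0.59 to -0.42 against the 4 SMC genes (rho -0.45 to -0.26), but without the 2 libraries r was -0.19 to 0.10, so that this opposition rested on them. Rad21 and Stag1 were opposed with and without them (r -0.83 and -0.74). Ncaph and Ncapd2 had r between -0.064 and 0.27 with the SMC genes over 8 libraries, but between 0.31 and 0.81 over the 6, so that this weak likeness also rested on the 2 libraries. Ncapg had r between 0.49 and 0.64 over the 8. These values describe 8 libraries and carry no test.

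**Figure D4:**
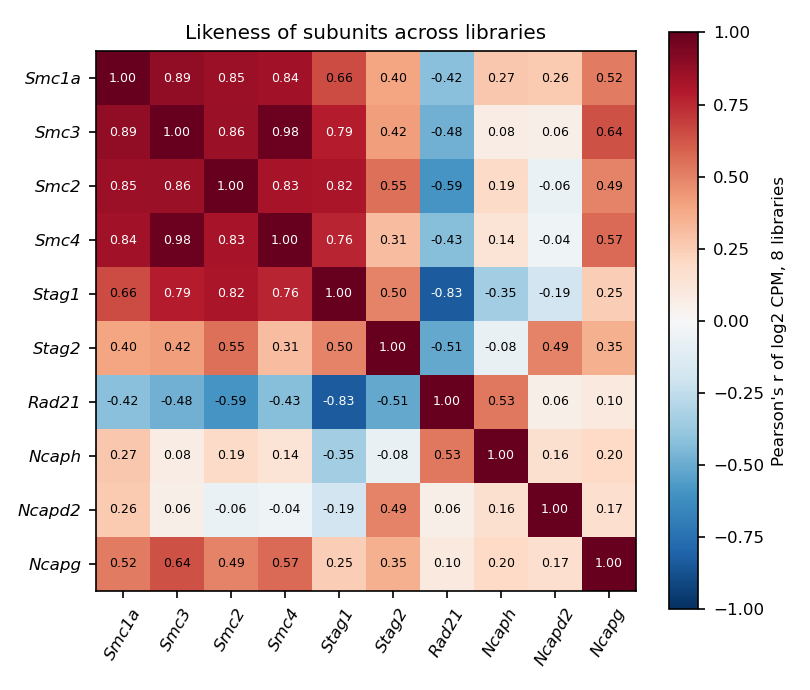
Pearson's r of log2 CPM between each pair of subunit genes over the 8 libraries, with the value printed in each cell and colours from -1 (blue) to 1 (red). The block of Smc1a, Smc3, Smc2, Smc4 and Stag1 has r from 0.66 to 0.98, and Rad21 has negative r with each of these 5 genes.

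The fold changes of the SMC genes depended on which libraries were kept. Without pool 1 the log2 fold change was -0.0061 for Smc1a, -0.16 for Smc3, -0.16 for Smc2 and -0.14 for Smc4. Vehicle replicate 3 and NAM/PN replicate 4, in other pools, had the largest and the smallest share of ribosomal RNA. They were also the highest vehicle and the lowest NAM/PN library of each SMC gene, so leaving both out had to raise these fold changes. Without both of them the log2 fold change was 0.40 for Smc1a (SE 0.14), 0.35 for Smc3 (0.14), 0.15 for Smc2 (0.14) and 0.29 for Smc4 (0.11). The other members were at 0.11 (Rad21), 0.0038 (Stag1), -0.036 (Stag2), 0.65 (Ncaph), 0.17 (Ncapd2) and 0.35 (Ncapg). The lowest adjusted p among members was then 0.174, for Smc1a, and again 0 of 10 were called by edgeR. The median over the 5 condensin members went from 0.19 to 0.29, and that over the cohesin members from 0.041 to 0.11. In NAM/PN replicate 4, genes of cohesin loading and release summed to 509 CPM, against 783 to 826 CPM in the other NAM/PN libraries, and in vehicle replicate 3 they summed to 1102 CPM, against 629 to 738 CPM. What part the makeup of these libraries has in the SMC levels was not tested.

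Among the other genes of the pathway, 0 of 39 tested were called in either direction, with or without the block, beside 1.28% of all genes. Of the 39 log2 fold changes 25 were above 0, beside 49.8% of all genes, with a median of 0.036. The condensin II subunits, which work on chromosomes from prophase on, were near 0 (3 genes, median -0.040), and the smallest p among them was that of Ncapd3, at a log2 fold change of -0.16 (SE 0.44). Genes for loading, release and anchoring of cohesin were evenly divided, with 3 of 6 above 0 (median -0.0037). Pds5a, which regulates the residence of cohesin on DNA, had 88.7 ± 28.1 CPM under vehicle, and 70.0 ± 17.3 CPM under NAM/PN (SD, n = 4 per condition), with a log2 fold change of -0.34 (SE 0.25). In the SMC5/6 complex, which acts in DNA repair, 4 of 6 genes were above 0 (median 0.025), and Smc6 had a log2 fold change of -0.23 (SE 0.17). Genes of mitotic chromosome architecture had a median of 0.0030 over 6 genes, and Kif22, a chromokinesin, a log2 fold change of 0.16 (SE 0.22). These 4 genes had adjusted p-values between 0.800 and 0.978 by edgeR.

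Cohesion establishment and cohesin protection held the larger differences of the pathway. In the cohesion establishment list, 10 genes that include acetyltransferases and replication fork factors and also the SMC3 deacetylase Hdac8, 8 log2 fold changes were above 0, with a median of 0.23, and their summed level was 224 to 247 CPM in the 4 vehicle libraries and 283 to 341 CPM in the 4 NAM/PN libraries. Of the difference of 70.8 CPM between the mean sums, Tipin made up 35.9 CPM and Timeless 17.7 CPM, and none of the 10 genes was called. Tipin, a replication fork protein that promotes cohesion, had the smallest p, with 110, 77.3, 80.6 and 88.0 CPM under vehicle, and 133, 94.6, 125 and 147 CPM under NAM/PN. It was higher with NAM/PN in 4 of 4 pools, by 0.49 on the log2 scale (SE 0.20, adjusted p = 0.406 by edgeR). Its partner Timeless, named after its values were seen, was at 16.8, 14.9, 28.8 and 30.7 CPM under vehicle, and at 42.5, 51.8, 46.1 and 21.5 CPM under NAM/PN. Only NAM/PN replicate 4 lay within the vehicle range, and the log2 fold change was 0.83 (SE 0.35, adjusted p = 0.440 by edgeR).

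In the group that protects or cleaves cohesin, 6 of 8 log2 fold changes were above 0, with a median of 0.22. Sgo1, the shugoshin that shields centromeric cohesin, was at 41.3, 56.9, 42.6 and 50.9 CPM under vehicle, and at 108, 84.6, 58.9 and 56.0 CPM under NAM/PN. All 4 pools were higher with NAM/PN, although NAM/PN replicate 4 was below vehicle replicate 2, and the log2 fold change was 0.68 (SE 0.25, adjusted p = 0.302 by edgeR). Bub1 and Pttg1 were named after their values were seen. Bub1, the kinase that recruits shugoshin to centromeres, had a log2 fold change of 0.66 (SE 0.28, higher in 4 of 4 pools, adjusted p = 0.439 by edgeR). Pttg1, which encodes securin, the inhibitor of separase, went the other way, with 65.5, 92.3, 70.9 and 74.9 CPM under vehicle, and 61.7, 56.3, 27.7 and 56.6 CPM under NAM/PN. Every NAM/PN library was below every vehicle library, and the log2 fold change was -0.58 (SE 0.25, adjusted p = 0.469 by edgeR). An unadjusted p under 0.05 was reached by 5 of the 39 pathway genes (Tipin, Timeless, Sgo1, Bub1 and Pttg1), which is 12.8% beside 9.28% of all genes. The conditions did not overlap in 2, Pttg1 and Hdac8, which is 5.13% beside 7.21% of all genes. Hdac8, the deacetylase that recycles SMC3 and a gene named after its values were seen, was at 7.82, 5.58, 11.5 and 4.68 CPM under vehicle, and at 4.55, 3.34, 0 and 3.64 CPM under NAM/PN. With 0 to 93 counts per library and 0 in NAM/PN replicate 3, its log2 fold change of -1.35 had an interval from -3.70 to 1.01 (adjusted p = 0.842 by edgeR). None of these genes passed the adjustment over all genes.

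**Figure D5:**
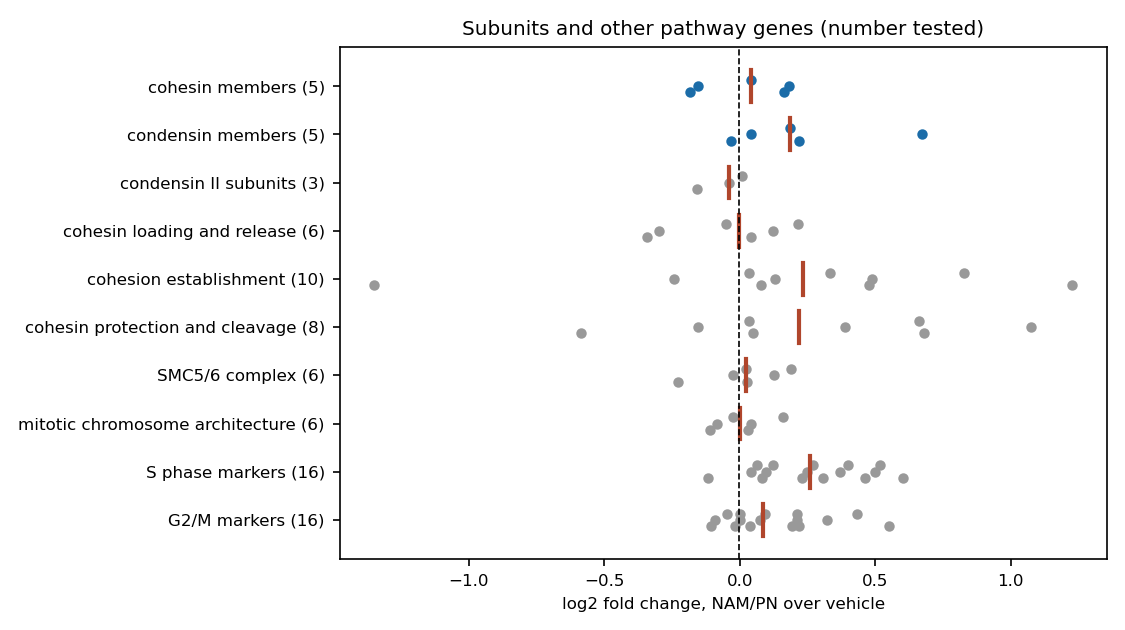
Log2 fold change of each tested gene, NAM/PN over vehicle (x axis), by group of genes (y axis, with the number tested), with blue points for the 10 subunit genes, grey points for other genes, a red bar for the median of each group and a dashed line for the median of all tested genes. The medians of condensin (0.19), cohesion establishment (0.23), cohesin protection and cleavage (0.22) and S phase markers (0.26) lie to the right of that line, and those of cohesin (0.041) and condensin II (-0.040) close to it.

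The subunit genes were set beside genes of the cell cycle phases in which the complexes are used. Of 16 S phase markers, 15 had log2 fold changes above 0 (median 0.26), beside 49.8% of all genes. Their summed level was 1989 to 2513 CPM under vehicle, and 2595 to 2909 CPM under NAM/PN. Of 16 G2/M markers, 11 were above 0 (median 0.085), at 2339 to 2821 CPM under vehicle, and 2790 to 2999 CPM under NAM/PN. In neither list was a gene called. Summed over the 5 members, cohesin was at 1190 ± 194 CPM under vehicle, and 1271 ± 149 CPM under NAM/PN, and condensin at 1331 ± 193 and 1407 ± 185 CPM (SD, n = 4 each), so that the sums of both complexes overlapped between conditions.

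The meiotic cohesin subunits had few or no counts. Smc1b and Rad21l had 0 counts in all 8 libraries, which allows up to 0.280 to 0.457 CPM per library when 3 counts are taken as the floor. Rec8 had 3 counts in vehicle replicate 4 and 5 in NAM/PN replicate 2 and 0 elsewhere. Stag3 had 36 counts in NAM/PN replicate 1 and 22 in NAM/PN replicate 3 and 0 in the other 6 libraries. None of the 4 genes passed the filter on low counts. In the fit without a filter Rec8 and Stag3 entered, and neither was called (adjusted p = 0.940 and 0.366 by edgeR).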

How the data were processed

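RNA of 8 cultures of aged MuSCs was read by 3′ sequencing with a QuantSeq FWD kit. The values are raw counts, which the authors made with RNASTAR on GRCm38 and htseq-count and deposited as 1 table (HTSeq 2.16.2 in the submitters' processing notes). The annotation release, the strand setting and the treatment of reads with several alignments are not given in the sources used here. Counts of 3′ reads were not divided by gene length, and levels of different genes were not compared. Of 55487 identifiers, 55141 were found in GENCODE M21 on GRCm38, from which names and positions were taken.

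Genes were filtered with filterByExpr (minimum count 10, minimum total 15, by treatment) and TMM factors scaled the library sizes. The conditions were tested with the quasi-likelihood F-test (edgeR 4.0.16, R 4.3.3), p-values were adjusted over 12060 genes by Benjamini-Hochberg at a threshold of 0.05, and the standard error was the log2 fold change divided by the root of the F statistic. The fit was tested on simulated data. The labels give both libraries of a pool the same pool identifier, and 8 mice made 4 pools of 2, so the pairing comes from shared mice and a second fit had a replicate block for the pool. Deviations of paired libraries from their condition means had correlations of -0.033 to 0.031 over genes. No 2 libraries of the same condition agreed within sampling noise. Replicates are pools of different mice. Log2 CPM used a prior count of 2, and the floor of detection was 3 counts, which covers counting error only.

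The members and gene lists were chosen with earlier results of these data known. Named genes are the 10 members, any pathway gene called, and the gene with the smallest p in each pathway list. Others are marked where they appear, and Nipbl was also named after its values were seen. Alternatives were DESeq2 1.42.0, relative log expression, no filter, voomWithQualityWeights with limma 3.58.1, a threshold of 0.10, and fits in which each library or pool was omitted in turn. Figures were drawn with matplotlib 3.10.9.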

Additional observations from a re-analysis of the deposited data

Results flagged for a closer look

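Of 76 groups of 4 libraries examined, 9 had a library whose gap to its nearest neighbour passed Dixon's critical value of 0.829 times the range. The groups were the members, some pathway genes (Ncapd3, Pds5a, Tipin, Sgo1, Smc6, Kif22, Bub1, Timeless, Pttg1 and Nipbl), the sums of the gene lists and the share of ribosomal RNA, in each condition. For independent groups chosen beforehand chance gives about 3.8. These groups share libraries and genes, and Bub1, Timeless, Pttg1 and Nipbl were chosen after their values were seen. The count of 9 therefore cannot be read as an excess over chance. None of the 10 subunit genes was among the 9. The cohesin loader Nipbl was at 422 CPM in vehicle replicate 3, against 231 to 245 CPM in the other vehicle libraries. Genes of cohesin loading and release summed in NAM/PN replicate 4 to 509 CPM (others 783 to 826). Genes of cohesin protection and cleavage summed to 466 CPM in vehicle replicate 3, against 623 to 654 CPM. NAM/PN replicate 3 had 27.7 CPM of Pttg1 (others 56.3 to 61.7). The S phase markers summed in NAM/PN replicate 4 to 2909 CPM (others 2595 to 2646). Mural markers summed to 33.4 CPM in NAM/PN replicate 4 (others 48.3 to 50.9) and fibro-adipogenic markers to 207 CPM in vehicle replicate 3 (others 153 to 158). The ribosomal RNA gene took 18.7% of the counts of vehicle replicate 3 (others 9.09% to 9.59%). Meiotic cohesin subunits were at 0.326 CPM, which is 3 counts, in vehicle replicate 4 and at 0 in the other vehicle libraries, so that any count there would have passed. Of the 9, 4 lay in vehicle replicate 3 and 3 in NAM/PN replicate 4, and their cause was not tested.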

How the results depend on the processing

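In all 19 alternatives, including 12 that leave out a library or pool, 0 members and 0 of the other pathway genes were called. With the replicate block 156 genes were called in all, 130 of them also without it, and it changed no call of a member. The number of genes called over the whole table was 289 with DESeq2, 366 without a filter on low counts, 244 at a threshold of 0.10, 42 to 177 when a library or pool was left out, and 236 without vehicle replicate 3 and NAM/PN replicate 4 (chosen after seeing the data), against 154. The fold changes of single members near 0 had no stable sign. Leaving out libraries or pools gave log2 fold changes of -0.0061 to 0.31 for Smc1a, -0.16 to 0.21 for Smc3, -0.35 to 0.014 for Stag2, -0.16 to 0.087 for Smc2 and -0.14 to 0.19 for Smc4. Stag1 ranged from -0.29 to -0.061. Smc2 was at 0.045 with voomWithQualityWeights. Without the 2 libraries named above Smc2 was at 0.15, Stag1 at 0.0038, Smc1a at 0.40, Smc3 at 0.35 and Smc4 at 0.29. Rad21, Ncaph (0.45 to 0.85), Ncapd2 and Ncapg stayed above 0 in every fit. The median of the cohesin members went from -0.16 to 0.17 and that of the condensin members from 0.055 to 0.24 when libraries or pools were left out. Leaving out pool 1 or pool 2 gave the fewest calls (65 and 42 genes). At these depths a level under 0.280 to 0.457 CPM was below the floor of 3 counts.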
